A study of Mus musculus with 8 samples.

Results

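Macrophages bind antibody-coated targets through Fc gamma receptors, which recognise the constant part of immunoglobulin G. The genes described are the 7 rows of the deposited table, out of 48440 genes, whose symbol is Fcgr1, Fcgr3, Fcgr4, Fcgr2b, Fcer1g, Fcrls or Fcgrt; all 7 were found and all 7 passed the filter on low counts. The libraries came from CD11b+, F4/80+ cells of the pancreatic islets of wild-type male C57BL/6J mice, 16 weeks old. From 8 weeks of age the mice received for 8 weeks either chow (8% fat, 21% protein and 71% carbohydrate, 10.88 kJ/g) or a high-fat diet (HFD; 45% fat, 20% protein and 35% carbohydrate, 19.67 kJ/g). Each diet had 4 libraries, numbered 1 to 4 for chow and 5 to 8 for HFD, and every library was a pool from 2 mice, so the pool is the replicate. The comparison asks whether macrophages of the islet carry a different Fc receptor repertoire after the diet.

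As background, Fcgr1, Fcgr3 and Fcgr4 encode activating receptors that need the common gamma chain, encoded by Fcer1g, whose immunoreceptor tyrosine-based activation motif (ITAM) recruits the kinase Syk. Fcgr2b encodes the inhibitory receptor, which carries an inhibitory motif (ITIM) in its own tail and recruits the lipid phosphatase SHIP1. Fcgrt encodes the heavy chain of the neonatal Fc receptor, which with beta-2 microglobulin returns immunoglobulin G and albumin from endosomes, and Fcrls encodes an Fc receptor-like protein with a scavenger receptor domain that is best known as a microglial transcript. Macrophages as a class express most of these genes, and the balance of Fcgr3 and Fcgr4 against Fcgr2b is often used to describe how a phagocyte answers immune complexes.

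Library totals were 4288665 to 6391247 counts. Levels are counts per 1000000 counts of the TMM-scaled total (CPM), on which 3 counts, the upper limit that a count of 0 allows, correspond to 0.464 to 0.702 CPM; such limits cover counting error only. The sort markers were present in every library: Adgre1, which encodes F4/80, was at 501 ± 77.7 (chow) and 415 ± 73.5 CPM (HFD), and Itgam, which encodes CD11b, at 309.7 ± 70.7 and 334 ± 97.5 CPM (SD, n = 4). The summed CPM of 11 macrophage markers was 5889 to 7662 in chow and 5847 to 6889 in HFD. Transcripts of the surrounding tissue were present and varied between libraries: 12 islet endocrine genes summed to 441 to 1746 CPM in chow and 946 to 1829 CPM in HFD, and 12 acinar genes to 0.223, 2.32, 1580 and 3547 CPM in chow replicates 1 to 4 and to 103, 72.8, 1765 and 43.6 CPM in HFD replicates 5 to 8. Their part in the results was not tested. In bulk samples such as these, fewer cells of a type and less RNA per cell cannot be told apart.

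On GRCm38, 4 of the 7 genes lie close together on chromosome 1: Fcgr2b at 170958617 to 170976547, Fcgr4 at 171018920 to 171029761, Fcgr3 at 171051174 to 171064935 and Fcer1g at 171229572 to 171234365. Fcgr1 lies on chromosome 3 at 96282909 to 96293969, Fcrls on chromosome 3 at 87250758 to 87263738, and Fcgrt on chromosome 7 at 45092990 to 45103851. All but Fcgr4 are on the minus strand. Of the annotated genes that overlap them, the antisense model Gm38204, which shares exons with Fcgr2b, had 0 counts in all libraries together, and Gm45669, antisense to Fcgrt with no shared exon, had 52.

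Fcgr2b and Fcgr3 resemble each other so closely that their counts need care, and the following coding stretch of each shows why. The sequences are from GENCODE M21 transcripts on GRCm38, Fcgr2b from chr1:170967992-170968111 and Fcgr3 from chr1:171057703-171057822, both read 5′ to 3′ on the minus strand within a single exon. Capitals mark the 4 of 120 bases at which the genes differ.
Fcgr2b: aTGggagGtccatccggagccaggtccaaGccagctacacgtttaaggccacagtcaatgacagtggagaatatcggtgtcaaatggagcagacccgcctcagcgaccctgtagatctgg
Fcgr3: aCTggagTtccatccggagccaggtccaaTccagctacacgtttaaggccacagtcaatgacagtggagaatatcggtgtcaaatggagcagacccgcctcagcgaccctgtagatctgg
The identical run that begins in this stretch is 129 bases long. Over the 509 coding bases in the local alignment of both genes 96.5% were identical, against 56.4% to 62.7% for the other pairs among Fcgr1, Fcgr2b, Fcgr3 and Fcgr4. A local alignment covers only the part that matches best, here out of 1020 coding bases in Fcgr2b and 801 in Fcgr3. Of the 50-base words in protein-coding transcripts, 10.2% of those of Fcgr3 and 6.72% of those of Fcgr2b also occur in transcripts of another gene, and 0% of those of the other 5 genes. All counts of the 7 genes were whole numbers. How the authors' counting treated reads that fit both genes is not given in the sources used here, so the Fcgr2b and Fcgr3 levels are uncertain to that extent.

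The promoters of the 7 genes, 250 bases before to 50 bases after the start, were taken from RefSeq (GRCm38.p6) and searched on both strands for GAGGAA, the core of the box bound by PU.1, the master transcription factor of macrophages. They are shown because the set is defined by macrophage receptors. The letters occurred in the promoters of 4 of the 7 genes, against 31.3% of 27025 genes. The match is a description of letters and was not tested as a binding site. Each window below is 30 bases, written 5′ to 3′ on the strand that reads GAGGAA (capitals).
Fcgr1, chr3:96294007-96294036: aagattagaaaaGAGGAAggaagttgccat
Fcgr3, chr1:171059392-171059421: gaactacaaaaaGAGGAAggaaatggactc
Fcgr4, chr1:171018892-171018921: ttgactagaagaGAGGAAgtaaatagcctt
Fcrls, chr3:87263651-87263680: caagtctgtaaaGAGGAAggacgtttgctt
In the activating receptor genes Fcgr1, Fcgr3 and Fcgr4 the match lay on the strand opposite to the gene, within the last 55 bases before the start, or within the last 15 from the second annotated start of Fcgr3. In Fcrls it lay on the strand of the gene, 144 bases before the start. The letters were not found in the windows of Fcgr2b, Fcer1g and Fcgrt.

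None of the 7 genes passed the threshold in HFD against chow. By edgeR's quasi-likelihood test with Benjamini-Hochberg adjustment, 0 of 7 were called, where 0% of the 10129 genes tested were called. At an unadjusted p under 0.05 there was 1 of 7, Fcrls, where 5.35% of all genes tested, 542, stood there (2.61% higher and 2.74% lower). In no member were the diets apart; over all genes tested, 1.68% had every HFD library above every chow library and 1.71% had every one below. Fitted values were higher in HFD for 2 members and lower for 5, with a median log2 fold change of -0.09 beside -0.02 over all genes tested. A fitted change of more than 1.5-fold in either direction was found in 2 of 7, where 40.3% of all genes tested had one. DESeq2, which called 93 genes or 0.765% of those it adjusted, and limma-voom, which called 1 gene, called 0 of the 7.

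**Figure D1:**
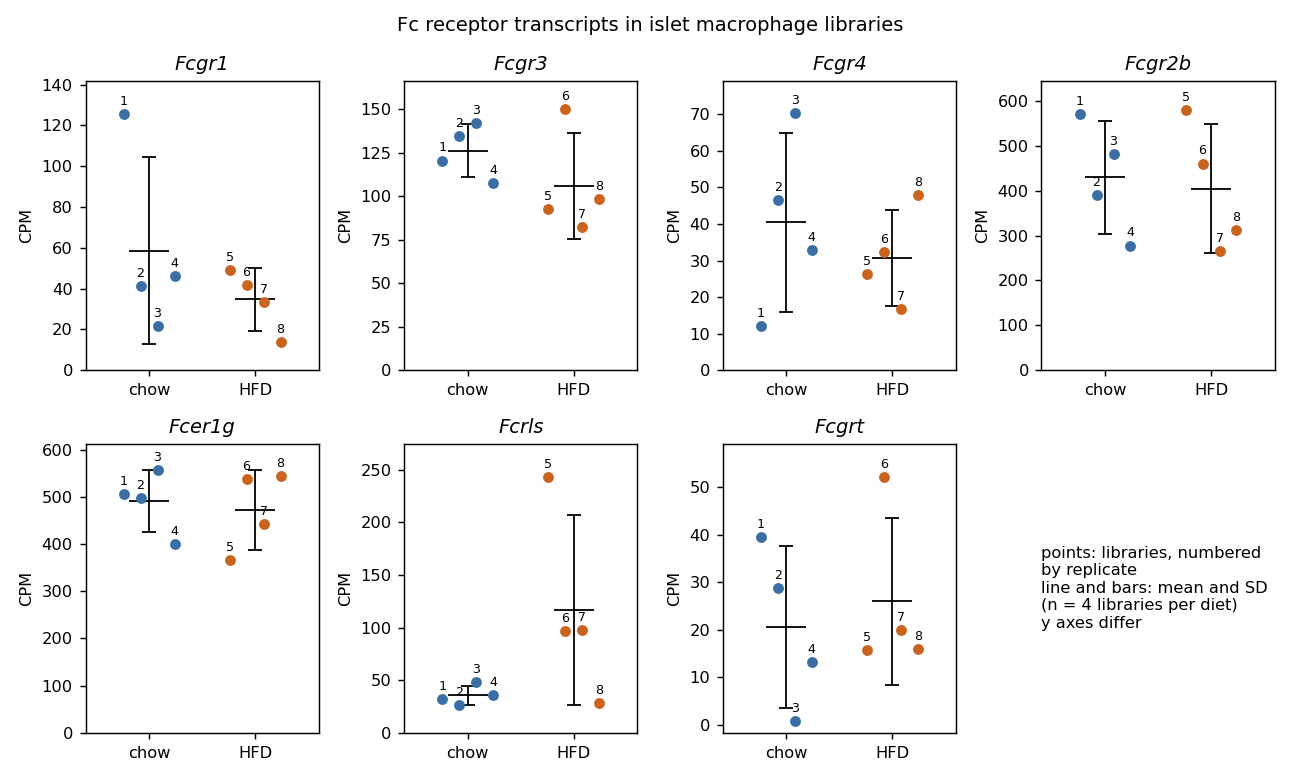
CPM of each gene in the 4 chow (blue) and 4 HFD (orange) libraries, numbered by replicate, with the mean and SD of each diet as a line and bars; y axes differ between panels. Fcrls is at 97.1 to 243 CPM in HFD replicates 5 to 7 and at 28.7 CPM in HFD replicate 8, while the diets overlap in all 7 genes.

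Fcer1g, the signalling chain, had the highest level of the set per length, with a coefficient of variation of 13.4% in chow and 17.9% in HFD. It was at 506, 498, 558 and 400.2 CPM in chow replicates 1 to 4 and at 367, 538, 442 and 544 CPM in HFD replicates 5 to 8. The lowest HFD library lay below and no HFD library above the range of chow. The means were 490.3 ± 65.7 and 473 ± 84.7 CPM (SD, n = 4), a log2 fold change of -0.05 (SE 0.18, edgeR adjusted p = 0.99), whose sign turned with scaling by library totals alone (0.015), without HFD replicate 5 (0.054), without chow replicate 3 (0.014) and with the summed stellate cell and fibroblast transcripts as a covariate (0.10). The 95% interval of the fold change ran from 0.740 to 1.26.

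Fcgr2b, the inhibitory receptor, was at 571, 390.1, 481 and 278 CPM in chow replicates 1 to 4 and at 581, 460.5, 265 and 312 CPM in HFD replicates 5 to 8. Both diets held high and low libraries, chow replicate 1 and HFD replicate 5 being the highest of their diets. The means of 430.1 ± 126 and 405 ± 144 CPM (SD, n = 4) gave a log2 fold change of -0.09 (SE 0.25, edgeR adjusted p = 0.99), with a 95% interval of 0.654 to 1.35 in fold. The sign turned without chow replicate 1 (0.074), without HFD replicate 7 (0.069) and without HFD replicate 8 (0.014). The receptor is also carried by B cells, whose 10 markers summed to 9.91 to 43.4 CPM on chow and 14.1 to 33.2 CPM on HFD, with Cd79a, Pax5, Blk and Fcer2a among those at 0 counts in all 8 libraries. Other markers of the list were detected, such as Cr2 at 33.9 and 22.5 CPM in chow replicates 1 and 4 and Cd79b at 20.3 CPM in HFD replicate 7.

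Fcgr3, the low-affinity activating receptor, was at 121, 135, 142 and 107 CPM in chow replicates 1 to 4. In HFD replicates 5 to 8 it was at 92.6, 150.2, 82.3 and 98.6 CPM. HFD replicates 5, 7 and 8 lay below all chow libraries and HFD replicate 6 above them all. The means were 126 ± 15.3 and 106 ± 30.2 CPM (SD, n = 4), a log2 fold change of -0.25 (SE 0.29, edgeR adjusted p = 0.99) that stayed below 0 in all 17 alternatives, from -0.47 to -0.15. Natural killer cells also carry this receptor. Their 10 markers summed to 0 to 1.70 CPM on chow and 0.394 to 11.3 CPM on HFD, with Ncr1, Gzma, Gzmb, Klre1 and Nkg7 at 0 counts throughout. The highest sum, in HFD replicate 7, was mostly Klrk1 at 10.9 CPM.

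Fcgr1, the high-affinity receptor, had 1 chow library far from the rest. It was at 126, 41.2, 21.8 and 46.1 CPM in chow replicates 1 to 4 and at 49.2, 41.8, 33.6 and 13.9 CPM in HFD replicates 5 to 8. Chow replicate 1 stood alone at the top, and the other 7 libraries overlapped between diets. The means of 58.7 ± 45.9 and 34.7 ± 15.2 CPM (SD, n = 4) gave a log2 fold change of -0.76 (SE 0.56, edgeR adjusted p = 0.99). Without chow replicate 1 it was -0.07, and with the summed stellate cell and fibroblast transcripts as a covariate it was 0.11. The coefficient of variation was 78.2% in chow, which rests on replicate 1, and 43.9% in HFD, where the medians of tested genes within 2-fold of its mean level were 47.1% and 41.8%.

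Fcgr4, an activating receptor of monocytes, macrophages and neutrophils, was at 12.03, 46.6, 70.3 and 32.8 CPM in chow replicates 1 to 4. In HFD replicates 5 to 8 it was at 26.2, 32.2, 16.7 and 47.8 CPM. All HFD values lay inside the range of chow. The means were 40.4 ± 24.5 and 30.7 ± 13.04 CPM (SD, n = 4). The log2 fold change was -0.40 (SE 0.58, edgeR adjusted p = 0.99) and 0.0099 without chow replicate 3, the library with the highest level. The 10 neutrophil markers summed to 30.3 to 92.2 CPM on chow and 35.6 to 122 CPM on HFD, with Ly6g, S100a8, S100a9, Camp, Ngp, Retnlg, Cxcr2 and Mmp9 at 0 counts in all libraries. Csf3r, at 58.9 ± 26.3 (chow) and 71.1 ± 28.1 CPM (HFD), made up the whole sum in chow and most of it in HFD. Mmp8 was at 20.5 CPM in HFD replicate 5. Chow replicate 1, the lowest of the 8 for Fcgr4, was the highest for Fcgr1; over the 8 libraries the log2(CPM + 1) values of this pair had a Pearson r of -0.75, the lowest of the 21 pairs of members, and Fcgr3 with Fcer1g had the highest at 0.63, given as descriptions.

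**Figure D2:**
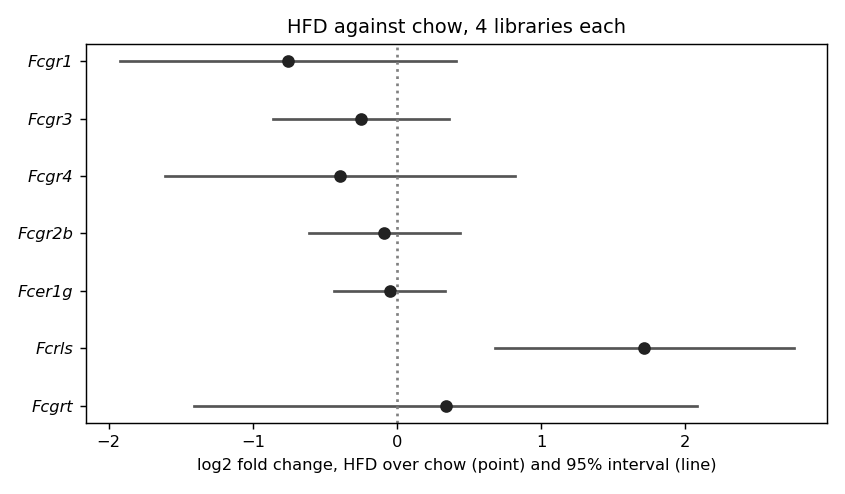
Log2 fold change of HFD over chow from edgeR (point) with its 95% interval (line) for the 7 genes, 4 libraries per diet. The interval spans 0 for 6 genes and is narrowest for Fcer1g; that of Fcrls runs from 0.68 to 2.75, unadjusted for the number of genes tested.

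To set the levels of the 7 genes side by side, CPM were divided by the kilobases of annotated exon. Fcer1g was at 561 ± 75.1 CPM per kilobase in chow and 541 ± 96.9 in HFD, above every other member in all 8 libraries. Fcgr2b followed at 74.3 ± 21.7 and 69.9 ± 24.9 and Fcgr3 at 72.7 ± 8.83 and 61.0 ± 17.4 CPM per kilobase. Within libraries Fcgr2b was the higher of the 2 in chow replicates 1 and 3 and HFD replicate 5, and Fcgr3 in the others. With the longest transcript as the length Fcgr2b was the higher in all libraries but chow replicate 4. Its means were then 121 ± 35.4 (chow) and 114 ± 40.6 (HFD), against 93.7 ± 11.4 and 78.6 ± 22.5 CPM per kilobase for Fcgr3, so their order depends on the length. Fcgr4 was at 32.2 ± 19.5 and 24.5 ± 10.4, Fcgr1 at 22.7 ± 17.7 and 13.4 ± 5.88, and Fcrls at 15.2 ± 4.00 and 49.99 ± 38.7 CPM per kilobase. Fcgrt was the lowest at 9.77 ± 8.10 and 12.3 ± 8.37 (SD, n = 4). Among the 4 lowest, neighbours overlapped in their libraries, so their order is not fixed; with the longest transcript as the length, Fcgrt was above Fcgr1 in HFD, at 14.7 ± 9.94 against 13.4 ± 5.88 CPM per kilobase.

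The share of the inhibitory receptor in the Fc gamma receptor transcripts overlapped between the diets. Per kilobase, Fcgr2b made up 43.6%, 34.0%, 36.3% and 31.2% of the sum of Fcgr1, Fcgr2b, Fcgr3 and Fcgr4 in chow replicates 1 to 4, and 51.8%, 38.3%, 38.3% and 35.0% in HFD replicates 5 to 8. HFD replicate 5 alone exceeded the highest chow library, and the means were 36.3% ± 5.31 and 40.8% ± 7.48 (SD, n = 4). With the longest transcript as the length the shares were 44.3% ± 5.74 and 48.8% ± 7.69, a shift within each library that left the overlap of the diets. The ratio of Fcgr2b to Fcgr3 counts, which is not divided by length and is compared only between libraries, was 4.74, 2.89, 3.39 and 2.59 in chow and 6.27, 3.07, 3.21 and 3.17 in HFD. Reads exchanged between these similar genes would move this ratio, while their sum was 385 to 692 CPM on chow and 347 to 673 CPM on HFD.

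**Figure D3:**
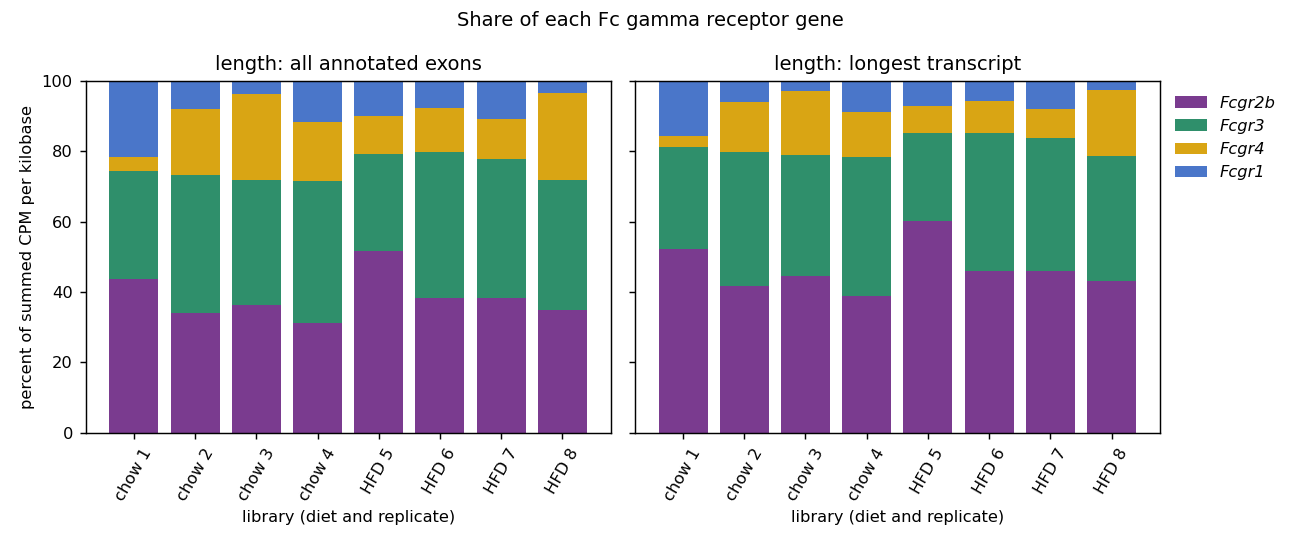
Share of Fcgr2b, Fcgr3, Fcgr4 and Fcgr1 in their summed CPM per kilobase for each library, with all annotated exons (left) or the longest transcript (right) as the length. Fcgr2b takes 31.2% to 51.8% on the left and 38.8% to 60.1% on the right, highest in HFD replicate 5 in both.

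Fcrls had the largest fitted change of the set and the smallest p, at rank 36 of the 10129 genes tested. It was at 31.9, 26.3, 48.3 and 35.6 CPM in chow replicates 1 to 4. In HFD replicates 5 to 8 it was at 243, 97.1, 97.6 and 28.7 CPM. The first 3 HFD libraries lay above every chow library and HFD replicate 8 lay inside the chow range. The means were 35.5 ± 9.34 and 117 ± 90.4 CPM (SD, n = 4), and the log2 fold change was 1.72 (SE 0.50, edgeR adjusted p = 0.71), with adjusted p-values of 0.027 to 0.998 over the alternatives.

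The size of the Fcrls change moved with single libraries, and its call with the filter. Without HFD replicate 5 the log2 fold change was 1.07 (adjusted p = 0.998), and without HFD replicate 8 it was 2.04 (adjusted p = 0.11). With no filter, where 45 of 17969 genes or 0.25% were called, Fcrls was called at a log2 fold change of 1.72 (edgeR adjusted p = 0.027). DESeq2 gave an adjusted p of 0.083. The direction was the same in all 17 alternatives.

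By Pearson's r of log2(CPM + 1) over 8 libraries, among 7310 genes with a mean of at least 10 CPM, the 3 most like it were Wwp1, a ubiquitin ligase gene, at 0.97, Dab2, an endocytic adaptor gene, at 0.97, and Mrc1, the mannose receptor gene, at 0.96. Wwp1 was at 82.7 to 108 CPM on chow and at 465, 202, 251 and 61.1 CPM on HFD replicates 5 to 8. Dab2 was at 361 to 534 CPM on chow and at 1129, 717, 597 and 423 CPM on HFD. Mrc1 was at 200.3 to 318 CPM on chow and at 1051, 518, 652 and 229 CPM on HFD, the same order of replicate 5 first and replicate 8 last as Fcrls. These genes share the libraries and their depth with Fcrls, so the likeness is a description.

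The sums of 2 marker lists of other populations were highest in HFD replicates 5 to 7, as was Fcrls. The 12 genes of a perivascular-type macrophage list, which holds Mrc1, summed to 387, 446, 596 and 414 CPM in chow replicates 1 to 4 and to 1721, 721, 1073 and 346 CPM in HFD replicates 5 to 8. The 13 genes of a stellate cell and fibroblast list summed to 24.1, 93.0, 132 and 112 CPM on chow and to 461, 288, 279 and 105 CPM on HFD. None of the genes of either list was at 0 in all libraries. In the first list Mrc1, named above among the 3 genes most like Fcrls, made up most of the sum in every library. The other genes of that list had higher means in HFD except Lyve1, at 12.8 ± 12.3 (chow) and 10.6 ± 10.9 CPM (HFD) (SD, n = 4). They did not all follow Fcrls over the libraries, Cbr2 being highest in HFD replicate 7 at 53.5 CPM. The genes of the second list did not move together, and those named here were chosen after their values were seen. Col1a1, Col5a1, Col6a3, Dcn, Lum and Pdgfra were at 0 CPM in all chow libraries, and the collagen gene Col1a1 was at 71.9, 40.8, 30.5 and 0.199 CPM in HFD replicates 5 to 8. Rgs5, a pericyte gene, was at 0, 78.2, 127 and 84.7 CPM in chow replicates 1 to 4 and at 30.9, 50.1, 24.9 and 96.2 CPM in HFD replicates 5 to 8, and it made up most of the sum in chow replicates 2 to 4 and HFD replicate 8. With the stellate and fibroblast sum as a covariate the Fcrls log2 fold change was 0.47 (SE 0.71, edgeR adjusted p = 0.997), where the SE without it was 0.50. That sum was itself mostly higher in HFD, so this fit cannot tell diet and these transcripts apart. The part of either population in the Fcrls values was not tested. The dendritic cell list summed to 251 to 303 CPM on chow and 144, 251, 226 and 253 CPM on HFD, with Ccr7 and Ffar2 at 0. Most of this sum was Siglech, at 187 ± 23.8 (chow) and 156 ± 56.6 CPM (HFD), and Clec9a, at 71.0 ± 36.5 and 24.4 ± 8.84 CPM (SD, n = 4). The mean of Itgae was also lower in HFD, while those of Flt3, Zbtb46, Xcr1, Clec10a and Batf3 were higher.

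**Figure D4:**
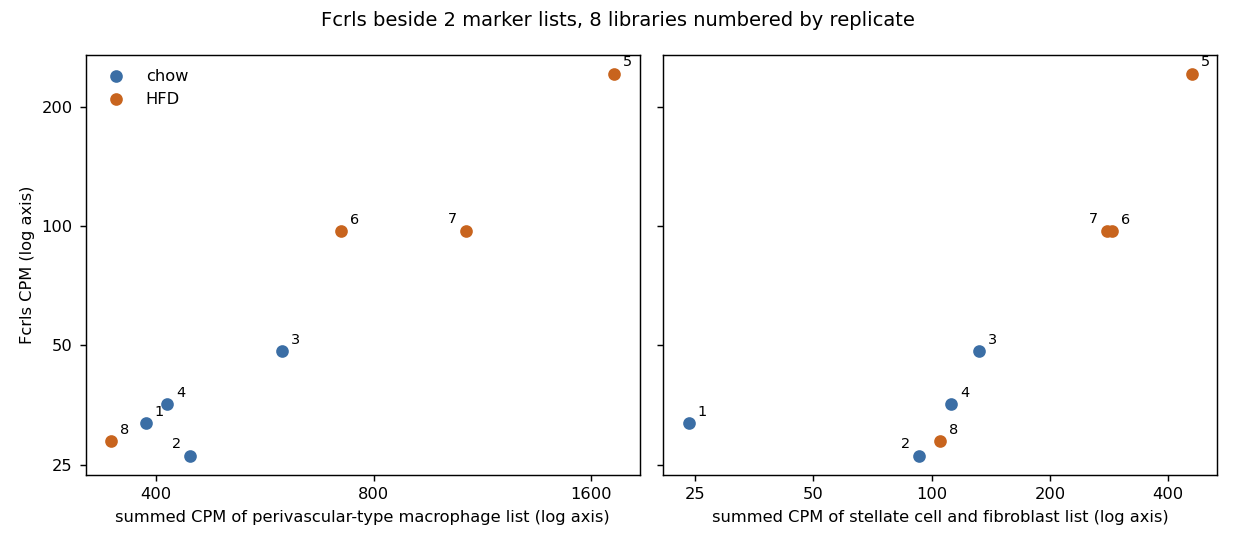
Fcrls CPM against the summed CPM of a perivascular-type macrophage list (left) and of a stellate cell and fibroblast list (right) in the 8 libraries, numbered by replicate; all axes are logarithmic. HFD replicates 5 to 7 are highest on both axes of both panels, and HFD replicate 8 lies near the chow libraries.

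Fcgrt, the recycling receptor, was the least certain member. It was at 39.4, 28.8, 0.822 and 13.1 CPM in chow replicates 1 to 4 and at 15.8, 52.2, 19.9 and 15.9 CPM in HFD replicates 5 to 8. Chow replicate 3 held 4 counts, an exact 95% Poisson interval of 0.224 to 2.11 CPM for counting error only, while the other chow libraries held 56 to 186. The log2 fold change was 0.34 (SE 0.83, edgeR adjusted p = 0.99), with a 95% interval of 0.377 to 4.22 in fold, and it was -0.06 without chow replicate 3 and -0.26 without HFD replicate 6. It was 0.86 without chow replicate 1, 1.07 with limma-voom and 1.596 with the stellate and fibroblast covariate, none past the threshold. Its partner B2m, the beta-2 microglobulin gene, was at 3603 ± 523 (chow) and 3370 ± 269 CPM (HFD) (SD, n = 4), the log2 fold change being -0.10 (SE 0.12, edgeR adjusted p = 0.99).

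The nearest genes in pattern differed from member to member, over the same 8 libraries and 7310 genes. For Fcgr1 they were Dpf2 at 0.97, Mrpl13 at 0.96 and Gm37233 at 0.93. Those of Fcgr3 were the ribosomal protein genes Rpl11, Rps7 and Rps24 at 0.945, 0.935 and 0.930, whose counts are uncertain because near-identical copies exist. Those of Fcgr4 included Sra1 at 0.96 and Cnot1 at 0.94, and those of Fcgr2b were Arl6ip1, Gm43273 and Gpalpp1 at 0.94 each. Those of Fcer1g were Elmo1 at 0.95, an adaptor of engulfment, Milr1 at 0.94, an inhibitory receptor gene, and Rpl36 at 0.94. Those of Fcgrt were Cops6, Cand1 and Rnf19a at 0.96, 0.96 and 0.95. An r of at least 0.9 was reached by 7 to 22 genes per member.

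Several other Fc receptor genes had few or no counts, while others of the same list were well above that. Fcer1a and Ms4a2, which complete the IgE receptor with the gamma chain in mast cells and basophils, had 0 counts in all 8 libraries. So did Fcer2a, Fcamr and Fcmr, and also the ficolin gene Fcnb, which is on the list but is not an Fc receptor gene. Fcrla, Fcrlb and Fcrl5 had 4, 3 and 1 counts over all libraries. Fcrl1, an Fc receptor-like gene of B cells, was at 2.45, 23.5, 6.37 and 16.4 CPM on chow and 1.38, 23.1, 6.06 and 4.78 CPM on HFD. Trim21, a cytosolic antibody receptor, was at 48.0 ± 15.4 and 64.2 ± 25.7 CPM (SD, n = 4), with a log2 fold change of 0.42 (SE 0.43, edgeR adjusted p = 0.99). Of the 16 genes of this list 3 were tested.

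The signalling machinery around the receptors was described with 8 lists of 124 genes in all, of which 90 were tested. By edgeR, 0 of the 90 were called, 2 were higher and 3 lower at an unadjusted p under 0.05, and the diets were apart in 2 higher and 3 lower genes, 5.56% together beside the 1.68% higher and 1.71% lower of all genes tested. Fitted values were higher in HFD for 39 and lower for 51, with a median log2 fold change of -0.03. Nothing particular to these genes is read from the counts.

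Of the list of proximal kinases, 7 of 9 were tested, 4 higher and 3 lower, none called, with a median of 0.25. Syk, the kinase recruited by the gamma chain, was at 171 ± 25.1 (chow) and 161 ± 48.2 CPM (HFD), and Lyn at 382 ± 31.9 and 455 ± 43.2 CPM (SD, n = 4); these were named for their role after their values were seen. The kinases with the smallest p were Tec, at 66.9 ± 34.3 and 102 ± 19.9 CPM, and Fgr, at 36.3 ± 35.3 and 16.5 ± 11.5 CPM. Neither passed the threshold (edgeR adjusted p = 0.99 each).

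Among adaptors and effectors, 20 of 21 genes were tested, 9 higher and 11 lower, none called, with a median of -0.01. Plcg1, a phospholipase gene, was at 5.35, 3.25, 2.26 and 0.234 CPM on chow and at 22.9, 13.9, 7.94 and 39.2 CPM on HFD, a log2 fold change of 2.91 (SE 1.04, edgeR adjusted p = 0.75) on low counts. Prkcd, the protein kinase C delta gene, was at 258 to 333 CPM on chow and at 145 to 246 CPM on HFD, and the fitted log2 change was -0.57 (SE 0.22, edgeR adjusted p = 0.78). The diets did not overlap in either gene. Of the actin machinery of the phagocytic cup, 21 of 22 genes were tested, 12 higher and 9 lower, with a median of 0.01; Was, which activates actin branching, was at 56.0 ± 31.3 and 22.9 ± 5.72 CPM, and the myosin gene Myo1g at 59.0 ± 14.0 and 35.8 ± 6.20 CPM, the latter without overlap (edgeR adjusted p = 0.89 and 0.99).

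On the inhibitory side, 11 of 12 phosphatase and ligase genes were tested, 2 higher and 9 lower, none called, with a median of -0.13. Inpp5d, which encodes SHIP1 and was named for its role after its values were seen, was at 219 ± 54.5 (chow) and 179 ± 42.1 CPM (HFD). Cblb was at 75.0 ± 30.4 and 49.2 ± 13.03 CPM, and Ptpn6, which encodes SHP-1, at 47.7 ± 15.3 and 30.6 ± 16.3 CPM (SD, n = 4). Of a list of receptors grouped as inhibitory, whose motifs were not checked here, 16 of 21 were tested, 7 higher and 9 lower, with a median of -0.01. Clec4a1, a C-type lectin receptor gene for which an ITIM was not checked, was at 6.68, 24.9, 14.0 and 8.66 CPM on chow and at 56.1, 25.3, 55.8 and 43.0 CPM on HFD, above chow in 4 of 4 libraries, at a log2 fold change of 1.73 (SE 0.61, edgeR adjusted p = 0.75). Cd300lf was at 27.8 ± 10.2 and 50.7 ± 28.0 CPM.

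Of 13 other receptors that pair with the gamma chain 5 were tested, 1 higher and 4 lower, none called, with a median of -0.59. Lilra5, a leukocyte immunoglobulin-like receptor gene, was at 192, 145, 192 and 202 CPM on chow and at 93.8, 103, 59.6 and 123 CPM on HFD. Every HFD library lay below every chow library, and the log2 fold change was -0.95 (SE 0.29, edgeR adjusted p = 0.75). Cd300c2 was at 121 ± 44.0 and 80.4 ± 25.8 CPM (SD, n = 4), with a log2 fold change of -0.59 (SE 0.35, edgeR adjusted p = 0.99). Of a list grouped as other ITAM adaptors and their receptors, whose motifs were not checked here, 7 of 11 genes were tested. Of these, 3 were higher and 4 lower, with a median of -0.09. Siglech was at 187 ± 23.8 and 156 ± 56.6 CPM and Cd300lb at 5.47 ± 5.23 and 11.8 ± 12.6 CPM, neither past the threshold. The adaptor gene Tyrobp, the counterpart of Fcer1g, was at 211 ± 33.9 and 198 ± 34.7 CPM and was named for its role after its values were seen.

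**Figure D5:**
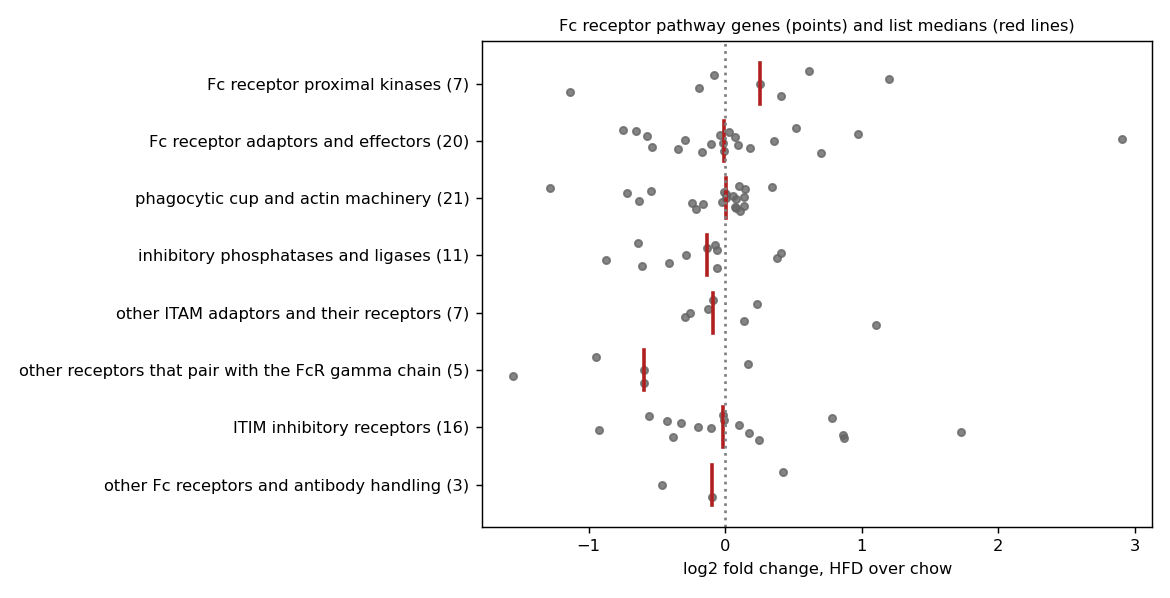
Log2 fold change of HFD over chow for the tested genes of 8 Fc receptor pathway lists (points; number tested in parentheses) with each list's median (red line). Medians lie between -0.59 for receptors that pair with the gamma chain, 5 genes, and 0.25 for the proximal kinases, 7 genes. No gene was called. The names of the ITAM and ITIM lists were not checked against protein sequences.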

How the data were processed

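RNA from sorted islet macrophages was amplified with the Ovation RNA-Seq System V2, per the labels' protocols. Reads were processed with FastQC, Trim Galore and STAR on GRCm38, per the submitters' processing notes; for versions, counter, annotation release and strand use nothing is stated there. Expected counts, unscaled, are what the authors deposited; 939 to 1115 values per library were not whole, and all were rounded. The search for ITAM and ITIM patterns that had been planned was not run, since no protein sequences were used here. Names, positions and lengths came from GENCODE M21, which held 48058 of 48440 identifiers.

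HFD and chow were compared with edgeR (version 4.0.16; TMM, filterByExpr, robust quasi-likelihood test, diet as the only term, two-sided, Benjamini-Hochberg over 10129 genes, threshold 0.05) in R (version 4.3.3), after a check on simulated data. Intervals use the fit's SE and its residual degrees of freedom. The 17 alternatives comprised other scalings and filters, a fit that was not robust, and a stellate and fibroblast covariate. They also comprised DESeq2 (version 1.42.0), limma-voom with a quality weight estimated for each library (limma version 3.58.1), and each library left out in turn. Named genes were the 7 members, the 2 genes per list with the smallest p, the 3 genes most like each member, and the sort markers; some items are not reported here. Members and lists were chosen with earlier results of these data known. Counts from amplified RNA without molecular identifiers are not independent molecules.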

Additional observations from a re-analysis of the deposited data

Results flagged for a closer look

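In 3 of 50 sets of 4 libraries, 1 library stood apart by Dixon's 95% critical value, which chance does in about 1 of 20 sets. Fcgrt was at 52.2 CPM in HFD replicate 6 and at 15.8 to 19.9 CPM in the other HFD libraries. The log2 ratio of Fcgr3 to Fcgr2b was -2.65 in HFD replicate 5, against -1.68 to -1.62 in the other HFD libraries, and chow replicate 1 had -2.24. B2m was at 3770 CPM in HFD replicate 8 and at 3187 to 3277 CPM in the other HFD libraries.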

How the results depend on the processing

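The number of genes called, 0, was 45 with no filter, 93 with DESeq2 and 1 with limma-voom, and 0 to 11 with each library left out, 11 without HFD replicate 8. Fcrls kept its direction throughout and was called with no filter (log2 fold change 1.72). With the stellate and fibroblast covariate Fcgr1 was at 0.11 and Fcer1g at 0.10, and with library totals Fcer1g was at 0.015. The covariate was itself mostly higher in HFD, so fits with it cannot tell diet and these transcripts apart. With each library left out, Fcgr4 ran from -0.71 to 0.0099, Fcgr2b from -0.31 to 0.074, Fcer1g from -0.14 to 0.054 and Fcgrt from -0.26 to 0.86; the cause was not tested. With the longest transcript as the length, the Fcgr2b share was 44.3% in chow and 48.8% in HFD, and levels in CPM per kilobase were 93.7 and 78.6 for Fcgr3, 121 and 114 for Fcgr2b, and 718 and 692 for Fcer1g, since shorter lengths raise them. No paired analysis was possible because the diets share no replicate number. Fcgrt and Plcg1 are limited by low counts in single libraries.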
